A study of Mus musculus with 2 samples.

Results

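Expression of 10 actin and contractile genes was compared between cultured mouse neural retinal progenitor cells (mNRPCs) and mouse retina. The genes were Actb, Actg1, Acta2, Tpm1, Tpm2, Tpm4, Myl9, Cnn2, Tagln and Tagln2. They were listed by name, with earlier results of these data known. All 10 were found among the 31253 genes of the expression table. The first library was made from total RNA of retinal progenitor cells of strain C57BL/6 after 24 passages in culture. According to the study's methods, such cells were taken from adult mouse retina and grown on Matrigel in N2/B27 medium containing the mitogen bFGF (basic fibroblast growth factor) together with CHIR99021, which inhibits glycogen synthase kinase. Retina tissue of C57BL/6 mice gave the total RNA of the other library, and the labels give neither its age nor how many animals were used. There was 1 library per group, so the spread between replicates is unknown for every difference described here, and no test between the groups was made. Levels in mNRPCs and in retina are those of these single libraries.

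Actin polymerises into filaments that give a cell its shape and let it move. Actb and Actg1 encode the cytoplasmic actins that nearly every cell makes, and Acta2 encodes the actin of smooth muscle. Tropomyosins lie along the filament and decide which partners may bind it, myosin II pulls on it once its regulatory light chain (Myl9 and its relatives) is phosphorylated, and calponins and transgelins bind and bundle it. In an intact retina, smooth muscle actin is known from the mural cells of blood vessels, while neurons hold filaments at synapses and photoreceptors in their inner segments. Many genes of this system carry a CArG box, the site of serum response factor (SRF), in their promoters.

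Levels are given in FPKM (fragments scaled to transcript length and to the size of the library), summed over the transcripts of a gene. Ratios are written as log2((mNRPC FPKM + 1)/(retina FPKM + 1)), a scale on which differences of low genes appear too small. Genes with at least 1 FPKM in either library were compared, and a log2 ratio of at least 1 in size, which is 2-fold, was counted as higher or lower. The counting error is the standard error of the log2 ratio without the added 1, from the estimated number of fragments alone. Where FPKM is low, it therefore overstates the error of the ratio printed beside it. The depth, estimated from the lowest FPKM values, was 6.53e+06 fragments (mNRPC) and 5.01e+06 fragments (retina). The FPKM values summed to 616860.0 and 432256, and the median log2 ratio of all 13780 compared genes was -0.12. Rescaling to a common sum would lower the mNRPC library against the retina library by 0.51 on the log2 scale, and it moved that median to -0.68. The rod markers summed to 11.5 FPKM in mNRPCs and to 24445 FPKM in retina, and Pax6 was at 123 and 101 FPKM. Of 8 retinal progenitor markers, 5 reached 1 FPKM in mNRPCs. Rax and Six6 were listed at 0 there.

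Most of the 10 genes were higher in mNRPCs. At least 2-fold higher were 7 of them (Actb, Actg1, Acta2, Tpm1, Tpm4, Cnn2 and Tagln2), against 24.5% of all compared genes. Tagln was lower, against 30.0% of all compared genes, and Tpm2 and Myl9 lay between the thresholds. The median log2 ratio of the 10 genes was 1.93. After rescaling to a common sum, Actg1 and Acta2 fell short of 2-fold and 5 genes were counted as higher, while of all genes compared under that scaling 18.4% were higher and 42.4% lower. All 10 passed the filter of 1 FPKM, but Tpm2 and Tagln passed through the retina library alone. Together the 10 genes held 3076 FPKM in mNRPCs, which was 0.499% of the library's total, and 655 FPKM in retina, which was 0.151%. These are bulk samples, in which fewer cells of a type and less RNA per cell cannot be told apart.

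**Figure D1:**
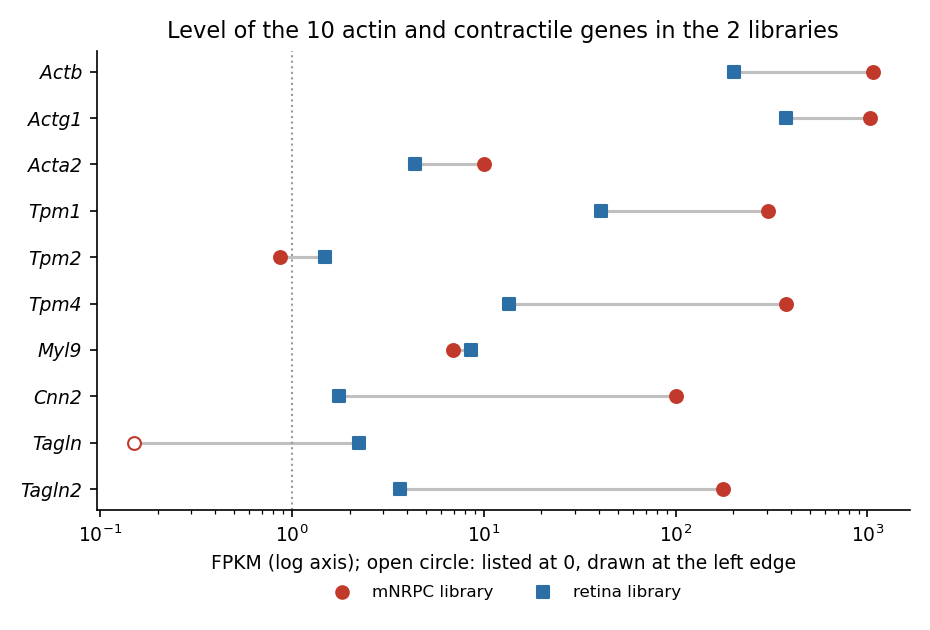
FPKM (x axis, log scale) of each of the 10 genes (y axis) in mNRPCs (red circles) and retina (blue squares), with a dotted line at 1 FPKM. Tpm4, Cnn2 and Tagln2 have the widest gaps, Myl9 and Tpm2 are close in both libraries, and Tagln is listed at 0 in mNRPCs (open circle at the left edge).

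The cytoplasmic actins were the most abundant of the 10 genes in both libraries, but in different proportion. Actb was at 1066 FPKM in mNRPCs and 201 FPKM in retina, a 5.31-fold difference (log2 ratio 2.40, counting error 0.04). Actg1 was at 1034 and 378 FPKM, a 2.74-fold difference (log2 ratio 1.45, counting error 0.03). Near-equal levels in mNRPCs thus stood against a clear lead of Actg1 in retina. The ratio of Actb to Actg1 was 1.03 in mNRPCs and 0.531 in retina. Of the summed FPKM of 6 actin genes, Actb made up 50.5% in mNRPCs (95% Wilson interval 49.9 to 51.1) and 34.3% in retina (33.0 to 35.5). These intervals apply the FPKM share to the estimated fragments of the whole family and cover counting error only. They are approximate where transcripts differ in length. Ranked by FPKM among all genes, Actg1 was 94th in mNRPCs and 113th in retina, and Actb was 86th and 262nd.

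Both cytoplasmic actins have 1125 coding bases, of which 88.6% were identical in the RefSeq transcripts. The first 45 coding bases are shown because they hold 9 of the positions at which the genes can be told apart, in capitals. They lie in coding exons at chr5:142905642-142905686 (Actb) and chr11:120348047-120348091 (Actg1), both on the minus strand of GRCm38.
Actb: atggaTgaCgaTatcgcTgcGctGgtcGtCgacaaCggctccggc
Actg1: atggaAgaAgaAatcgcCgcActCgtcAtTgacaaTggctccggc
The longest run that the Actb and Actg1 transcripts share was 62 bases, and Acta2 shared runs of 47 bases with Actb and 56 bases with Actg1. Read length was not given in the sources used here, so how many reads were divided between these genes by estimation, or fell on their processed copies elsewhere in the genome, was not tested.

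Actb is a customary reference gene, and so its ratio was set beside those of 12 other genes used for that purpose. Their log2 ratios ran from -1.47 (Hprt, a purine salvage enzyme) to 6.23 (B2m, the light chain of MHC class I), with a median of 1.14. At least 2-fold higher in mNRPCs were 6 of the 12, and 1 was lower, against 24.5% and 30.0% of all compared genes. The ratio of Actb was above 9 of the 12 and that of Actg1 above 7. Gapdh, a glycolytic enzyme, was at 3322 FPKM in mNRPCs and 2924 FPKM in retina (log2 ratio 0.18). The Actb log2 ratio less that of the reference gene was 2.22 for Gapdh and 0.03 for Eef1a1, a translation factor, and it ran from -3.82 for B2m to 3.88 for Hprt.

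Muscle actins were a small part of the actin pool in both libraries. Acta2 was at 10.1 FPKM in mNRPCs and 4.39 FPKM in retina (log2 ratio 1.05, counting error 0.25). Much of that difference lay in 1 of 2 transcript rows. The curated Acta2 transcript was at 6.85 and 4.38 FPKM, and a predicted one at 3.28 and 0.00981 FPKM. The Acta2 log2 ratio was under the threshold with curated rows only or the highest row only (0.55 in both), and also with upper quartile scaling (0.94) or a common sum (0.64). With versioned accessions and with trimmed mean scaling, whose shift was 0.00, it stayed at 1.05. Acta2 made up 0.480% of actin FPKM in mNRPCs (0.404 to 0.571) and 0.749% in retina (0.556 to 1.01). The cardiac actin Actc1 was listed at 0 in mNRPCs and at 2.01 FPKM in retina. The skeletal actin Acta1 was listed at 0 and at 0.727 FPKM, and the enteric smooth muscle actin Actg2 at 0 in both.

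**Figure D2:**
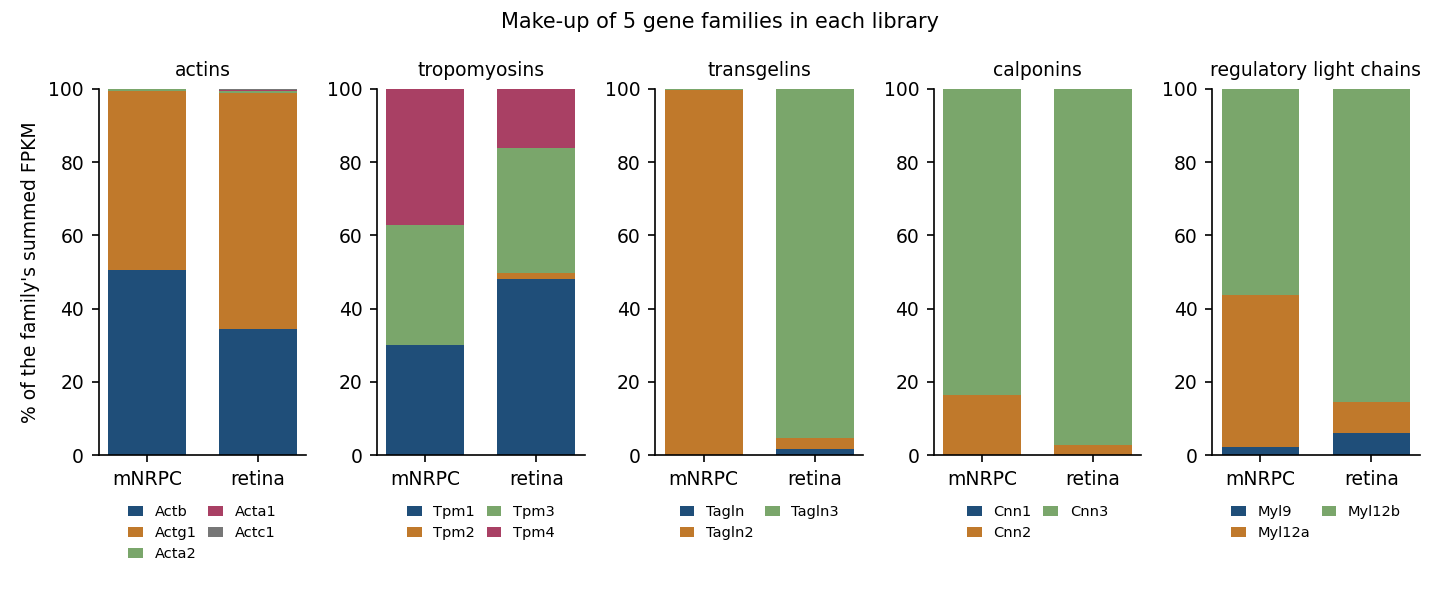
Share (y axis, % of the family's summed FPKM) of each gene in 5 families, with a stacked bar for each library in every panel. The largest exchange is among transgelins, where Tagln2 holds 99.7% in mNRPCs and Tagln3 holds 95.3% in retina.

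Tropomyosin levels, except for that of Tpm2, differed more than those of the cytoplasmic actins they bind. Tpm1, which gives rise to muscle and non-muscle forms, was at 303 FPKM in mNRPCs and 40.7 FPKM in retina, a 7.46-fold difference (log2 ratio 2.87, counting error 0.08). The Tpm1 log2 ratio rose to 4.43 when its 1 row of highest mean FPKM was taken alone. Tpm4, a non-muscle tropomyosin with a single transcript row, was at 377 and 13.6 FPKM, a 27.6-fold difference (log2 ratio 4.69, counting error 0.12). Only 1.42% of compared genes had a ratio above that of Tpm4. Tpm2, known from muscle and fibroblasts, was at 0.872 and 1.49 FPKM (log2 ratio -0.41, counting error 0.56). These Tpm2 values correspond to an estimated 11.2 and 15.7 fragments, and the Tpm2 log2 ratio turned to 0.08 with curated rows only. Tpm3, the remaining tropomyosin gene, was at 330.4 and 28.9 FPKM (log2 ratio 3.47).

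The tropomyosin pool of the 4 genes was 1011 FPKM in mNRPCs and 84.8 FPKM in retina. Per unit of Actb and Actg1 FPKM it was 0.482 in mNRPCs and 0.147 in retina. Tpm4 made up 37.2% of the pool in mNRPCs (36.4 to 38.1) and 16.1% in retina (13.8 to 18.7), and Tpm1 made up 30.0% and 48.0%. The shares of both genes, and the order of the Tpm4 shares, depended on which rows were taken. When each gene was represented by its 1 row of highest mean FPKM over both libraries, Tpm4 held 44.6% in mNRPCs and 60.7% in retina, and Tpm1 held 18.8% and 28.5%. For Tpm1 and Tpm3 this was the row highest in mNRPCs and not in retina. With the highest row chosen within each library, an alternative added after seeing the data, Tpm4 held 44.6% and 41.9%, and Tpm1 18.8% and 29.8%.

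Tpm1 makes its many forms in part through 2 start sites and a choice of last exons. Matched transcripts alike in both were not separated further in the groups below. Of its 26 transcript rows, 10 were matched to annotated structures, and these held 86.3% of Tpm1 FPKM in mNRPCs and 75.0% in retina. Long forms of 281 or 284 codons held 70.3% of the matched FPKM in mNRPCs and 40.0% in retina. Short forms of 245 or 248 codons, which start at an internal exon and are typical of non-muscle cells, held 29.7% and 60.0%. The alternative coding ends are shown because the libraries differed most in which of them was used. Each run starts after the last coding exon that all matched transcripts share, leaves out the stop codon and lies on the minus strand of GRCm38. The first is split over exons within chr9:67028167-67029742, the second is at chr9:67024495-67024565 and the third at chr9:67023362-67023441.
Tpm1 end nearest the start: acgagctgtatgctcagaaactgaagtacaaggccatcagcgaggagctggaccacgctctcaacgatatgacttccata
Tpm1 middle end: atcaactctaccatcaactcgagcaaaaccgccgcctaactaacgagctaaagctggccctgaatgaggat
Tpm1 farthest end: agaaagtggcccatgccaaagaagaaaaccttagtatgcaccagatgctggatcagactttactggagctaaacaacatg

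The middle Tpm1 end, known from brain tropomyosins, was found mainly in retina. Transcripts with it summed to 0.483 FPKM in mNRPCs, 0.184% of the matched Tpm1 FPKM (0.0826 to 0.410), and to 12.9 FPKM in retina, 42.3% (36.7 to 48.0). The farthest end held 99.0% in mNRPCs (98.6 to 99.3) and 56.1% in retina (50.4 to 61.7). The end nearest the start held 0.840% and 1.59%. Of the 3 ends, the middle one alone had the higher FPKM in retina. About 4.33 estimated fragments in mNRPCs and 140.4 in retina lay behind it.

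**Figure D3:**
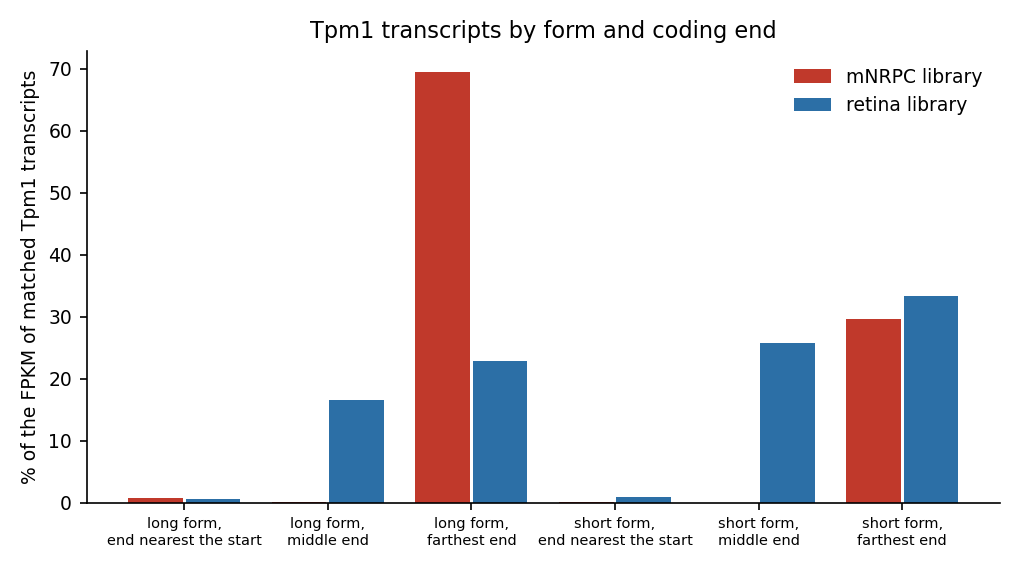
Share (y axis, % of the FPKM of the 10 matched Tpm1 transcripts) of long and short forms with each of 3 coding ends (x axis) in mNRPCs (red bars) and retina (blue bars). Long forms with the farthest end hold 69.4% in mNRPCs and 22.8% in retina, while long and short forms with the middle end, at 16.6% and 25.7% in retina, are near 0 in mNRPCs.

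At the level of single Tpm1 transcripts the same split was seen. The most abundant long transcript with the farthest end was at 159 FPKM in mNRPCs and 6.42 FPKM in retina. The most abundant short transcript with that same end was at 67.7 and 9.70 FPKM. The short transcript with the middle end was at 0.0840 and 7.85 FPKM. The long one with the middle end was at 0.399 and 5.06 FPKM. These shares depend on how reads common to several transcripts were divided, so single rows are less certain than gene sums.

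The 2 smooth muscle genes of the transgelin and regulatory light chain families did not follow the actins. Myl9, the light chain abundant in smooth muscle, was at 6.91 FPKM in mNRPCs and 8.57 FPKM in retina (log2 ratio -0.27, counting error 0.29). Its ubiquitous relatives were more abundant in both libraries. Myl12a was at 138 and 12.3 FPKM (log2 ratio 3.39), and Myl12b at 187 and 122 FPKM (log2 ratio 0.61). Myl9 therefore held 2.08% of regulatory light chain FPKM in mNRPCs (1.70 to 2.54) and 5.99% in retina (4.89 to 7.31). Myl12a took 41.7% in mNRPCs against 8.61% in retina.

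Among the transgelins, small calponin-like proteins that bundle actin, a different gene led in each library. Tagln2, the form of many non-muscle cells, was at 177 FPKM in mNRPCs and 3.67 FPKM in retina, a 48.3-fold difference (log2 ratio 5.25, counting error 0.27). The retina value of Tagln2 rests on an estimated 29.1 fragments. Of compared genes, 0.769% had a ratio above that of Tagln2. Its log2 ratio was close to that of Cnn2, and which of the pair was higher depended on the weight of the pseudocount. Tagln3, the neuronal form, was at 0.470 FPKM in mNRPCs and 120.1 FPKM in retina (log2 ratio -6.36). Summed over the family, FPKM was 177 and 126, so that Tagln2 made up 99.7% of it in mNRPCs and 2.91% in retina. Tagln, the smooth muscle form, was at 2.23 FPKM in retina, an estimated 17.8 fragments, but listed at 0 in mNRPCs. No fold is given for Tagln, since a value of 0 can be a failed estimate. In the mNRPC library 3 fragments of Tagln would correspond to 0.288 FPKM. Tagln and Tagln2 shared 69.3% of coding positions and no run longer than 15 bases.

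Cnn2, a calponin found outside muscle too, which binds actin filaments, was at 101 FPKM in mNRPCs and 1.77 FPKM in retina, a 56.9-fold difference (log2 ratio 5.20, counting error 0.31). Just 0.820% of compared genes had a higher ratio. The retina value of Cnn2 rests on an estimated 21.8 fragments. Cnn3, the most abundant calponin in both libraries, was at 511 and 61.7 FPKM (log2 ratio 3.03). Cnn1, the smooth muscle calponin, had 0.0587 FPKM in mNRPCs, whereas retina had it listed at 0. Cnn2 took 16.5% of calponin FPKM in mNRPCs (15.7 to 17.3) and 2.79% in retina (1.78 to 4.35).

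**Figure D4:**
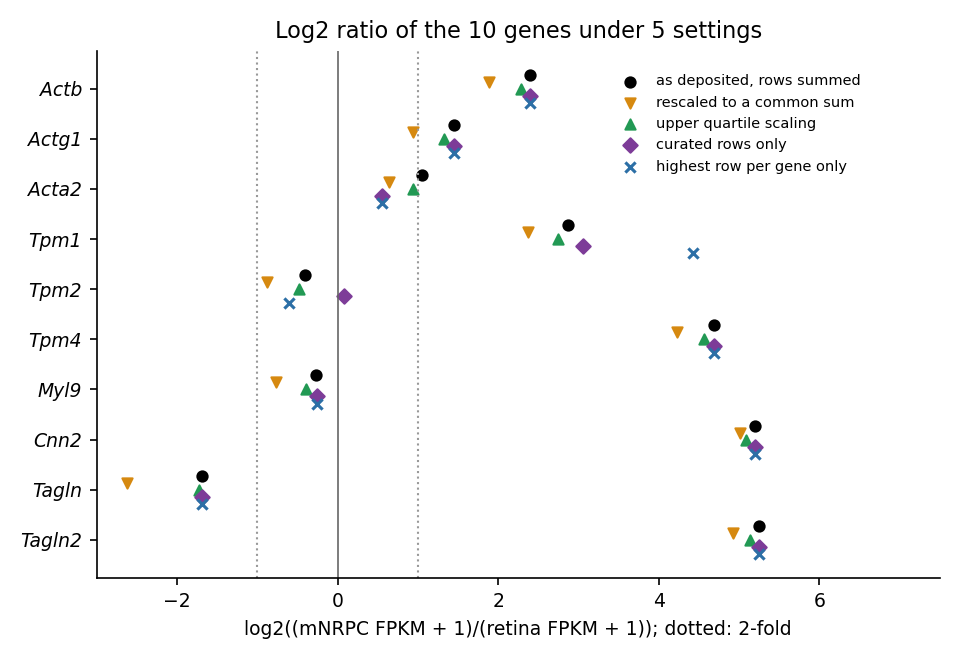
Log2 ratio (x axis) of each of the 10 genes (y axis) with rows summed as deposited and under 4 of 6 other settings of scaling or row choice, with dotted lines at 2-fold. Actb, Tpm1, Tpm4, Cnn2 and Tagln2 stay above 2-fold throughout, Acta2 falls under it in these 4 settings and Actg1 in 1, and Tpm2 changes side of 0.

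Promoters of 8 of the 10 genes were available from RefSeq (GRCm38.p6), each from 250 bases before to 50 after the start of the gene. The promoters of Actb and Tagln were not analysed here. A CArG box, whose pattern reads alike on both strands, was found in 3 of the 8 (Actg1, Cnn2 and Myl9). Of all 32851 promoters of that length, 1.63% held one. The stretches around the matches are shown, with the box in capitals, because the 3 genes that carry it had log2 ratios of 1.45, 5.20 and -0.27. The boxes begin 90, 56 and 161 bases before the start site, and the stretches are taken from chr11:120348551-120348610 (minus strand), chr10:79988519-79988578 (plus strand) and chr2:156775278-156775337 (plus strand).
Actg1: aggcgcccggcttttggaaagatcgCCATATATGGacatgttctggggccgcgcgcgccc
Cnn2: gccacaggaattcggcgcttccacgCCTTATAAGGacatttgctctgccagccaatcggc
Myl9: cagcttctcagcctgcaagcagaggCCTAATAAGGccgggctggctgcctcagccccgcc
A match describes these letters only, and its absence from the window says nothing of SRF. Among the other actin cytoskeleton genes described next, 6 of 51 promoters held a CArG box (Acta1, Actc1, Fhl2, Myl6, Srf and Vcl).

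The 10 genes were set beside 57 other genes of the actin cytoskeleton, of which 52 were compared. Of these, 30 were at least 2-fold higher in mNRPCs and 7 lower, with a median log2 ratio of 1.55, where all compared genes had 24.5% higher and 30.0% lower. Crosslinkers and focal adhesion genes had the highest median of the larger lists, 2.43, and 11 of 14 were higher (24.5% of all compared genes) and none was lower (30.0%). They ran from Cald1, caldesmon (91.6 FPKM in mNRPCs and 6.85 FPKM in retina, log2 ratio 3.56), to Pdlim7, which binds tropomyosin (21.8 and 25.7 FPKM, log2 ratio -0.23). Actn4, an alpha-actinin, was the most abundant of them in mNRPCs, at 111 FPKM against 17.2 FPKM in retina.

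Among genes of filament assembly and turnover, 14 of 21 were higher and 1 lower, against the same 24.5% and 30.0%, with a median log2 ratio of 1.34. Arpc1b, a subunit of the Arp2/3 complex that starts filament branches, was at 227 FPKM in mNRPCs and 3.28 FPKM in retina (log2 ratio 5.74). Tmsb4x, which binds actin monomers, was the most abundant of them in mNRPCs, at 1851 FPKM against 217 FPKM in retina. Tmod2, the neuronal tropomodulin that caps filaments together with tropomyosin, was the one gene of the list that was lower, at 0.209 and 11.4 FPKM (log2 ratio -3.35).

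Of myosin II and its kinases, 3 of 10 were higher and 4 lower, shares near the 24.5% and 30.0% of all compared genes, with a median log2 ratio of 0.51. Myl12a had the highest ratio, and Mylk, the kinase that phosphorylates the regulatory light chain, the lowest, at 1.20 FPKM in mNRPCs and 14.5 FPKM in retina (log2 ratio -2.82). The heavy chains, chosen after their values were seen, went opposite ways. Myh9 was at 81.8 FPKM in mNRPCs (log2 ratio 2.91), Myh10 at 3.76 and 13.5 FPKM (log2 ratio -1.60) and Myh14 at 1.16 and 7.27 FPKM (log2 ratio -1.94). Srf was at 14.8 and 9.51 FPKM (log2 ratio 0.59), and its coactivator gene Mrtfb at 2.60 and 4.09 FPKM (log2 ratio -0.50), so neither reached the threshold.

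**Figure D5:**
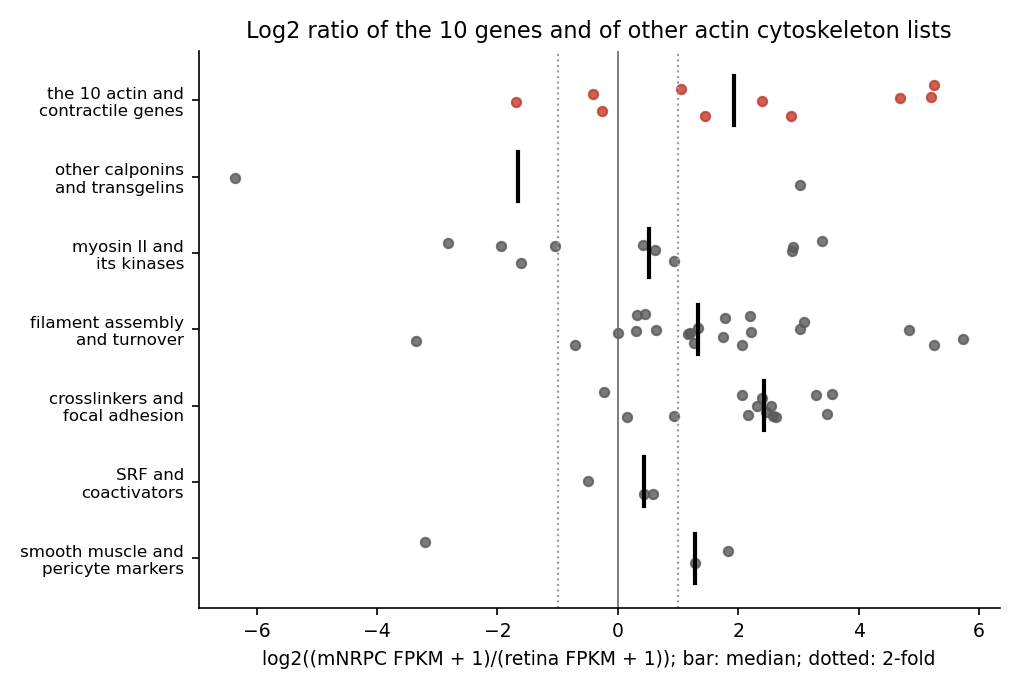
Log2 ratio (x axis) of each compared gene in the 10 actin and contractile genes (red), in 5 other actin cytoskeleton lists and in the smooth muscle and pericyte markers (grey), with a black bar at each median and dotted lines at 2-fold. The medians run from -1.67 for the other calponins and transgelins, which are Cnn3 and Tagln3, to 2.43 for crosslinkers and focal adhesion genes.

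Several contractile genes are also made by mural cells, fibroblasts and other cells, so markers of these were read beside them. The 10 smooth muscle and pericyte markers summed to 15.3 FPKM in mNRPCs, where 2 reached 1 FPKM, and to 14.0 FPKM in retina, where 3 did. Myh11, Rgs5, Kcnj8 and Abcc9 were listed at 0 in mNRPCs, as was Tagln. Smtn and Pdgfrb were higher in mNRPCs and Rgs5 lower, the only 3 markers of that list that were compared. Smtn was at 10.4 FPKM in mNRPCs and 2.22 FPKM in retina (log2 ratio 1.83). Pdgfrb was at 4.49 and 1.24 FPKM (log2 ratio 1.29), and Rgs5 at 0 and 8.16 FPKM (log2 ratio -3.20). The 8 fibroblast markers summed to 468 FPKM in mNRPCs and 6.37 FPKM in retina, with 5 and 2 at 1 FPKM or more. Col3a1 alone was at 449.8 and 0.311 FPKM, and Lum was listed at 0 in both. Endothelial markers summed to 0.132 FPKM in mNRPCs and 38.4 FPKM in retina, and 6 striated muscle markers to 2.40 and 3.90 FPKM. Macrophage and microglia markers summed to 0.00796 and 5.24 FPKM, and pigment epithelium markers to 0.533 and 221 FPKM. The part of any of these cell types in the levels of the 10 genes was not tested.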

How the data were processed

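RNA sequencing values of 1 mNRPC library and 1 retina library were used, grouped by the labels. The authors deposited FPKM values per RefSeq transcript for 106754 rows. The submitters' processing notes name TopHat2 2.0.10 and GRCm38.p3, whereas the study's methods name Bowtie 2 and eXpress, and the sequencers named differ too. How reads shared by transcripts were divided is therefore uncertain. Accessions without version were matched to RefSeq (GRCm38.p6) and GENCODE symbols (69.6% of rows, 93.2% and 89.9% of FPKM) and summed per gene. Values below 1e-06 were read as 0. Log2 ratios used a pseudocount of 1 and a minimum of 1 FPKM in either library. Depth was estimated from the low values of 6230 transcripts of at least 1500 bp, which limits precision. Counting errors (on the log2 scale) rest on fragments estimated from it, with fewer than 3 read as 3, and belong to ratios without the pseudocount. The 95% Wilson intervals apply each FPKM share to the estimated fragments of the whole family or of the matched transcripts. Both cover counting error only, and the intervals are approximate where transcripts differ in length. Scripts were run in Python 3.11.15 with pandas 2.3.3, numpy 2.4.6, scipy 1.17.1 and matplotlib 3.10.9, and tested on simulated data. Alternatives covered scaling, rows, pseudocount, filter and threshold.

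The genes and lists were chosen with earlier results of these data known. Named beside the 10 genes are their family members, the genes of highest ratio, lowest ratio and highest FPKM in each other actin list, and reference genes by range. Gapdh, Eef1a1, the myosin heavy chains and the single markers given with values were named after their values were seen.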

Additional observations from a re-analysis of the deposited data

How the results depend on the processing

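No paired analysis was possible because only 1 library stood for each group. Under 10 alternatives the number of the 10 genes at least 2-fold higher in the mNRPC library lay between 5 and 7. The share of all compared genes that were higher ran from 10.8% (no filter) to 27.4% (highest row per gene only). Of the 10 genes, 5 were higher after rescaling to a common sum (Actg1 at 0.94 and Acta2 dropped out) and at a log2 threshold of 2. The number was also 5 with versioned accessions, where the Actb and Actg1 rows were not matched. The number lower was 0 at a minimum of 5 FPKM, where Tpm2 and Tagln were not compared, and 0 at the threshold of 2. Of the other actin cytoskeleton genes, 11 were lower after rescaling to a common sum and 3 at the threshold of 2. Of all genes, 2751 were higher and 6349 lower after rescaling to a common sum, out of 14961 that then passed the filter (13780 with the values as deposited), since rescaling also changed the weight of the filter and the pseudocount. At the threshold of 2, 1942 were lower and 1547 higher. The median log2 ratio ranged from 1.42 to 1.93 where all 10 genes were compared, and it was up to 2.64 where some were left out (8 genes at a minimum of 5 FPKM). That of the other actin genes ranged from 0.88 to 1.92. No ratio of the 10 genes that had passed the threshold changed sign. Ratios of Tpm1 ran from 2.37 to 4.43 and of Tagln from -2.62 to -1.69 under scaling and row choices, and Tagln was at -4.54 with a pseudocount of 0.1. Depth most limits Tpm2 and Tagln, and also Cnn2 and Tagln2 in the retina library, each with few estimated fragments.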
